A study of Homo sapiens with 18 samples.

Results

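Heat shock factors and chaperones were examined as a set of 10 genes out of the 20020 protein-coding genes of the annotation: the factors HSF1 and HSF4, the HSP70 genes HSPA1A, HSPA1B and HSPA8, the HSP110 gene HSPH1, the J-domain gene DNAJB1, the HSP90 gene HSP90AA1, the small heat shock gene HSPB1 and the co-chaperone BAG3. In each histone mark a gene was represented by the counting interval with the highest mean count over the 4 libraries among those within 2 kb of any of its annotated start sites. 7 of the 10 genes had such an interval in at least 1 mark. The intervals were thus chosen by their level in all libraries, and the genes were listed with earlier results of these data known, so their values are a description of these libraries.

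The study asked how inhibition of the immunoproteasome alters chromatin in acute myeloid leukemia driven by KMT2A complexes. MOLM-13, an established human acute myeloid leukemia line that carries a KMT2A fusion, was exposed to 100 nM PR-957 (ONX-0914), an inhibitor of the immunoproteasome subunit PSMB8, or to the diluent DMSO. The sample labels give 72 h of treatment, and another passage of the study's text a shorter time. Cut&Tag, in which an antibody directs a transposase to a histone mark so that nearby DNA is cut and sequenced, was done for H3K4me3, H3K27ac, H3K4me1 and H3K27me3 with 2 DMSO and 2 PR-957 libraries per mark. All groups were the same line, and the labels do not say whether libraries came from separate cultures, so that p-values measure the spread between these libraries.

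Heat shock factors bind repeats of the motif GAA, called heat shock elements, in the promoters of chaperone genes. HSF1 is the principal factor of the response to misfolded protein, a state that proteasome inhibition is known to produce, whereas HSF4 is best known for its role in the lens. H3K4me3 and H3K27ac mark active promoters, H3K4me1 marks promoter flanks and enhancers, and H3K27me3 is laid down by Polycomb at repressed genes.

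The libraries held between 9885836 and 14165777 counts for H3K27ac, 10032503 and 12047958 for H3K27me3, 15204186 and 30584219 for H3K4me1, and 30070119 and 44591150 for H3K4me3. Myeloid and KMT2A-leukemia markers (SPI1, CEBPA, CD33, FLT3, MEIS1, HOXA9, LYZ) had H3K4me3 and H3K27ac intervals at their starts, MPO had H3K27ac and H3K4me1 intervals, and the erythroid GATA1, T cell CD3E and liver ALB had no interval in the lists used here. The muscle gene MYOD1 had an interval in H3K27me3 alone. HOXA9 and MEIS1 had H3K27me3 intervals as well, with DMSO levels per kb at the 98.8th and 46.2nd percentile of genes with that mark. In H3K4me3 the levels of the first 7 markers ran from the 18.8th percentile at LYZ to the 97.5th at SPI1. In H3K27ac they ran from the 28.5th percentile at LYZ to the 98.35th at MEIS1.

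Promoter sequence of the members was taken from RefSeq (GRCh38.p14, the same assembly as hg38), as 250 bases before to 50 bases after a start, and 9 of the 10 members matched, with 13 windows. Elements were searched as 3 alternating GAA units with 2 free bases between them, spelled GAANNTTCNNGAA or TTCNNGAANNTTC, which read the same elements on either strand, with at most 1 mismatch. By this measure 7 of the 13 windows, from 6 of the 9 members, held an element, against 6.24% of the 35116 promoters in the table. The element without mismatch was found at HSPA8 and HSP90AA1, against 0.49% of all promoters, and HSPA1A, HSPA1B, HSPB1 and DNAJB1 had it with 1 mismatch. The windows of BAG3, HSPH1 and HSF4 held none. The RefSeq window of HSPH1 lies at the first base of the gene, upstream of its main start in GENCODE. The 2-unit forms GAANNTTC or TTCNNGAA, which are contained in the longer element, were found in 13.5% of all promoters.

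Capitals mark the elements in the promoters of 3 chaperone genes whose marks are described further on, each read along its own gene and ending at or before the start. At HSP90AA1 the 4 matches overlap and form 1 run, with centres between 82 and 67 bases before the start, at DNAJB1 the matches are centred 71 and 46 bases before the start, and at HSPB1 the match is centred 176 bases before it. 
HSP90AA1, minus strand, chr14:102087045-102087294: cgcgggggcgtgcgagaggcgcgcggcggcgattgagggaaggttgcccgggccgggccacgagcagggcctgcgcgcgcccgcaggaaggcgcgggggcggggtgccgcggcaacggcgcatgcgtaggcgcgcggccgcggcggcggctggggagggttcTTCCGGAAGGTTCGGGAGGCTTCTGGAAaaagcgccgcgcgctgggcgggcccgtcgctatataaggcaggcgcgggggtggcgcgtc
DNAJB1, minus strand, chr19:14518408-14518647: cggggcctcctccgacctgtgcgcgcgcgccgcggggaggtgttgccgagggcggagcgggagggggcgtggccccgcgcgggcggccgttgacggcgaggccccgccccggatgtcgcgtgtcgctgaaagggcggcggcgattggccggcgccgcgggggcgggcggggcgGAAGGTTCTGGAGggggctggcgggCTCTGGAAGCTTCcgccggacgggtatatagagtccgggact
HSPB1, plus strand, chr7:76302423-76302672: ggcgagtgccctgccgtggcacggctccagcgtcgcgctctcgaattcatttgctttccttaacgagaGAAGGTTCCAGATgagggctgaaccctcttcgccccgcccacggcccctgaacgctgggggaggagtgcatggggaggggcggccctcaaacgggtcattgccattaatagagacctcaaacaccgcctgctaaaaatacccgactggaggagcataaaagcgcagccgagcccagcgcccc

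The results turn on the stretch between HSF4 and its downstream neighbour NOL3, which codes for an apoptosis repressor. Both windows that RefSeq gives for NOL3 are shown in part, the first of which lies in the H3K4me3 interval that rose with PR-957 and the second in the adjacent interval that did not pass the test. Neither holds an element, so there are no capitals. The first window has 24 CpG dinucleotides in its 300 bases and the second 9, beside a median of 14 over all promoters.
NOL3 first starts, plus strand, chr16:67170288-67170496: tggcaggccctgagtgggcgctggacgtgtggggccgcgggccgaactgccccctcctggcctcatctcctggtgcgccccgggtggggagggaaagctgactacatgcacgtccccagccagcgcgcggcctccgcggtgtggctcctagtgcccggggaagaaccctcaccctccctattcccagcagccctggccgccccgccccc
NOL3 main start, plus strand, chr16:67173694-67173861: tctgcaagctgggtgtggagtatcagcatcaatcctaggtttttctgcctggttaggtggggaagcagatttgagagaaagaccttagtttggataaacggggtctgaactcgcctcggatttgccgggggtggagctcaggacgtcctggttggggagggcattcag

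Among the members, only HSF4 had intervals that passed the test, and NOL3 shares all of them. The H3K4me3 interval that rose holds 7 starts of NOL3 and 1 of HSF4. The H3K4me3 intervals over the main HSF4 start did not pass. H3K4me3 between HSF4 and NOL3 rose 2.59-fold and H3K27me3 over both genes fell to 0.683 of its DMSO level, while the 6 chaperone genes with an interval had no change that passed the test in any mark. By edgeR's quasi-likelihood test at a Benjamini-Hochberg adjusted p below 0.05, 1 of 7 members passed in H3K4me3 (HSF4, higher), 1 of 1 in H3K27me3 (HSF4, lower), 0 of 7 in H3K27ac and 0 of 6 in H3K4me1. The same test called 0.219% of the representing intervals of all protein-coding genes in H3K4me3, 11.8% in H3K27me3, 0.48% in H3K27ac and 2.15% in H3K4me1. At an unadjusted p below 0.05 there were 3 members in H3K27ac (HSF4, HSP90AA1, HSPB1), 2 in H3K4me1 (HSP90AA1, BAG3), 2 in H3K4me3 (HSF4, HSPA8) and 1 in H3K27me3 (HSF4). The lowest of these among the chaperone genes was that of HSPA8 in H3K4me3, at 0.0044 by the edgeR test. The share of all genes below that unadjusted threshold was not determined, so these counts cannot be read as an excess.

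**Figure D1:**
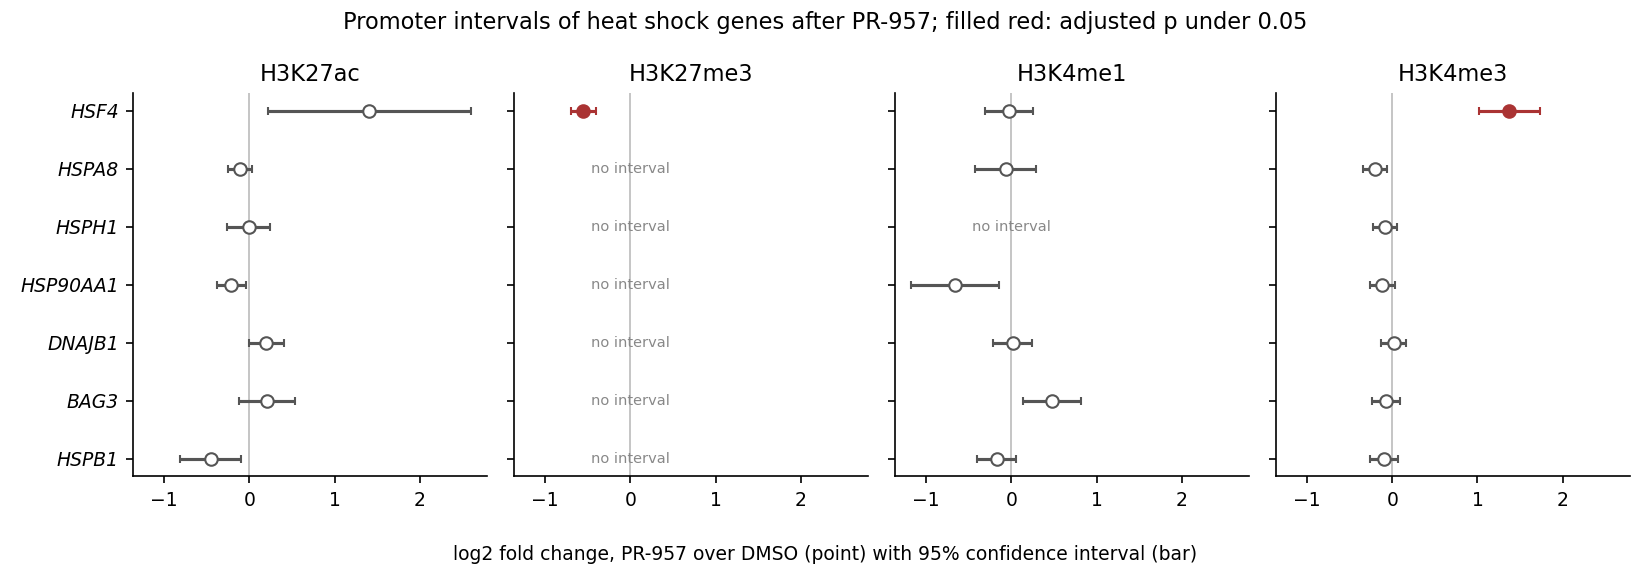
Log2 fold change of PR-957 over DMSO (x axis) for the representing interval of each member (y axis) in the 4 marks, with points for the edgeR estimate, bars for its 95% confidence interval and filled red points for an adjusted p below 0.05. HSF4 stands at 1.38 in H3K4me3 and -0.55 in H3K27me3, and the chaperone genes lie between -0.20 and 0.02 in H3K4me3.

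HSF4 lies on chromosome 16 at 67164681 to 67169945, on the plus strand, with its main start at 67164745 and 26 annotated start sites. NOL3 follows on the same strand at 67170154 to 67175737, with 12 start sites and its main start at 67174002, 9257 bases after that of HSF4. The H3K4me3 interval that represented HSF4, chr16:67168436-67172207, runs from within the 3' part of HSF4 into the first part of NOL3. It holds 1 of the HSF4 starts and 7 of the NOL3 starts, but neither main start.

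This interval had 131 and 116 counts with DMSO and 242 and 209 with PR-957. Its CPM, the count scaled to the size of the library, was 2.93 and 2.79 with DMSO and 7.94 and 6.90 with PR-957. Both PR-957 libraries were thus above both DMSO libraries, with means of 2.86 ± 0.102 and 7.42 ± 0.737 CPM (SD, n = 2). The log2 fold change was 1.38 with a standard error of 0.18, a 95% confidence interval from 1.02 to 1.73 and an edgeR adjusted p of 7.5e-10. In DMSO its level per kb was low, at the 3.86th percentile of the representing intervals of protein-coding genes. It ranked 5 by size of the log2 fold change among the 107 H3K4me3 intervals that rose across the genome, whose median was 0.68, and 134 of 59229 intervals (0.226%) were called in either direction. The lists hold intervals that overlap each other, so the rank and these counts are of intervals and not of separate sites.

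8 H3K4me3 intervals lay within 2 kb of an HSF4 start, and they fell into 2 places. The 4 that were shared with the promoter region of NOL3 overlap each other and count largely the same reads. All 4 were higher with PR-957, with log2 fold changes between 1.36 and 1.38 and edgeR adjusted p between 7.5e-10 and 1.2e-08. The second highest of them by mean count, chr16:67169481-67172295, had 130 and 111 counts with DMSO and 232 and 206 with PR-957. It holds no HSF4 start. Nor does chr16:67169251-67171478, which had 121 and 110 counts with DMSO and 225 and 193 with PR-957. The other 4 lie over the main HSF4 start and are shared with FBXL8, an F-box gene, and with the gene ENSG00000265690. None of these passed the test, with log2 fold changes between -0.03 and 0.36 and edgeR adjusted p between 0.882 and 0.994.

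At the main HSF4 start the widest of these intervals, chr16:67162780-67166392, had 103 and 98 counts with DMSO and 72 and 67 with PR-957. Its level was 2.30 and 2.35 CPM with DMSO and 2.36 and 2.21 CPM with PR-957, so that the groups overlapped. They also overlapped in chr16:67164090-67166048 over the same start. In chr16:67164307-67166193 they did not, with 1.66 and 1.54 CPM with DMSO and 2.00 and 1.68 CPM with PR-957. Nor did they in chr16:67164401-67167127, with 1.72 and 1.51 CPM with DMSO and 2.04 and 2.11 CPM with PR-957. At the main start of NOL3 the interval chr16:67172271-67175555 had 6.85 and 5.89 CPM with DMSO and 7.42 and 6.27 CPM with PR-957, which also overlapped. Its log2 fold change was 0.10 with a standard error of 0.15 and an adjusted p of 0.936.

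Counts in the interval that rose were also divided by those at the 2 main starts within each library. The interval was already known to rise in these libraries, so the ratios describe the same counts in another way. Relative to the widest interval at the main HSF4 start the ratio was 1.27 and 1.18 with DMSO and 3.36 and 3.12 with PR-957. Relative to the main NOL3 start it was 0.428 and 0.473 with DMSO and 1.07 and 1.10 with PR-957. Both ratios were higher in both PR-957 libraries than in either DMSO library. The difference of the mean log2 ratios was 1.40 for HSF4 and 1.27 for NOL3, each with a two-sided exact permutation p of 0.333, the smallest that 2 libraries against 2 allow. The ratio between both main starts overlapped between the groups, at 2.97 and 2.50 with DMSO and 3.14 and 2.84 with PR-957.

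**Figure D2:**
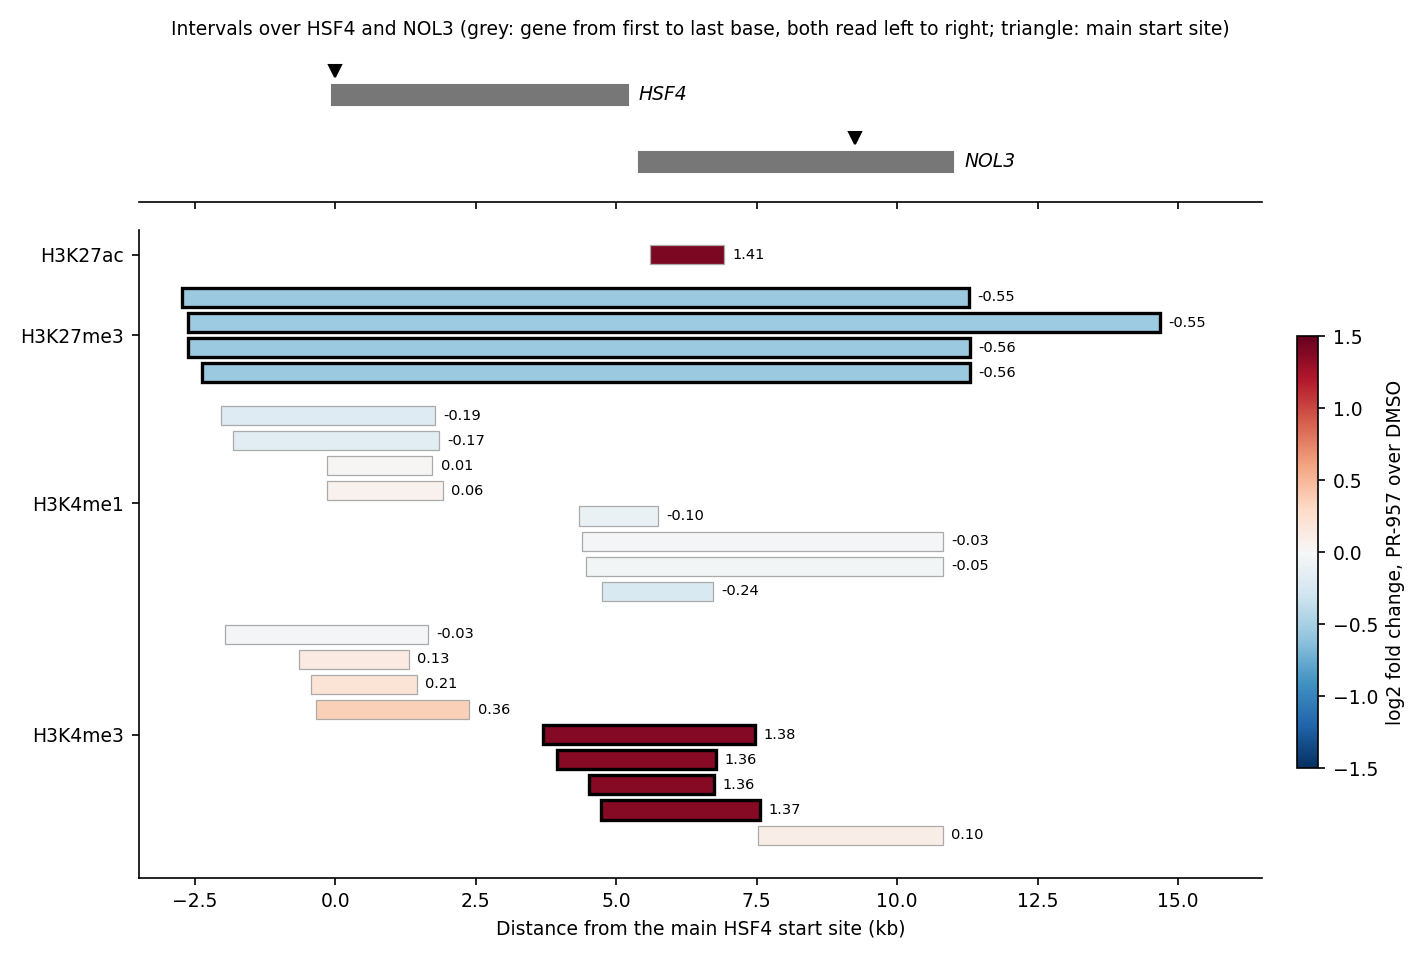
Intervals of the 4 marks over HSF4 and NOL3 (x axis: distance from the main HSF4 start in kb), coloured and labelled by the log2 fold change of PR-957 over DMSO, with black outlines for an adjusted p below 0.05. The 4 H3K4me3 intervals between the genes rose, the 4 H3K27me3 intervals over the locus fell, and the H3K4me3 intervals at both main starts did not pass the test.

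H3K27me3 was present over the entire locus in 4 overlapping intervals, all of which hold every annotated start of HSF4 and NOL3 and extend to starts of FBXL8, ENSG00000265690 and MATCAP1. The interval that represented HSF4, chr16:67162115-67179425, is 17310 bases long. It had 942 and 1172 counts with DMSO and 749 and 895 with PR-957, equal to 99.7 and 103 CPM with DMSO and 69.4 and 69.2 CPM with PR-957. The level was thus lower in each PR-957 library than in either DMSO library. Its log2 fold change was -0.55 with a standard error of 0.07 and an adjusted p of 5.9e-10, and the 4 intervals lay between -0.56 and -0.55. Across the genome 5.92% of H3K27me3 intervals were called, of which 1620 of 1882 (86.1%) were lower. That split depends on the scaling, since 31.5% of the calls were lower with library size alone and 54.8% with cyclic loess, whereas HSF4 was lower under each, at -0.39 and -0.45. HSF4 ranked 271 by size among the intervals that were lower. In DMSO its level per kb was at the 84.7th percentile of genes with H3K27me3. It was the only member with an H3K27me3 interval in the lists used here.

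By its representing intervals, which NOL3 shares, HSF4 was among a small number of genes with both changes. Of 2267 protein-coding genes with a tested interval in both marks, 9 had higher H3K4me3 and 258 (11.4%) had lower H3K27me3. 7 genes had both, namely HSF4, B4GALNT1, ENSG00000285283, GADD45G, OTX1, PAX6 and PTK2. The libraries of the 2 marks are separate, so that no control library was used in both comparisons. Whether both marks were read in the same cultures is not given by the labels.

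H3K27ac at the locus was found in 1 interval, chr16:67170346-67171660, which lies inside the stretch with higher H3K4me3 and holds 6 NOL3 starts. It had only 11 and 9 counts with DMSO and 19 and 38 with PR-957, or 0.833 and 0.907 CPM against 1.91 and 2.67 CPM. The groups did not overlap, and the log2 fold change was 1.41 with a standard error of 0.61, but the adjusted p was 0.489. At these counts the 95% confidence interval of the log2 fold change ran from 0.22 to 2.60. H3K4me1 had 8 intervals at the locus, none of which passed the test. The one that represented HSF4, chr16:67169127-67175555, had 10.4 and 10.3 CPM with DMSO and 10.2 and 10.0 CPM with PR-957, a log2 fold change of -0.03 with a standard error of 0.14.

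**Figure D3:**
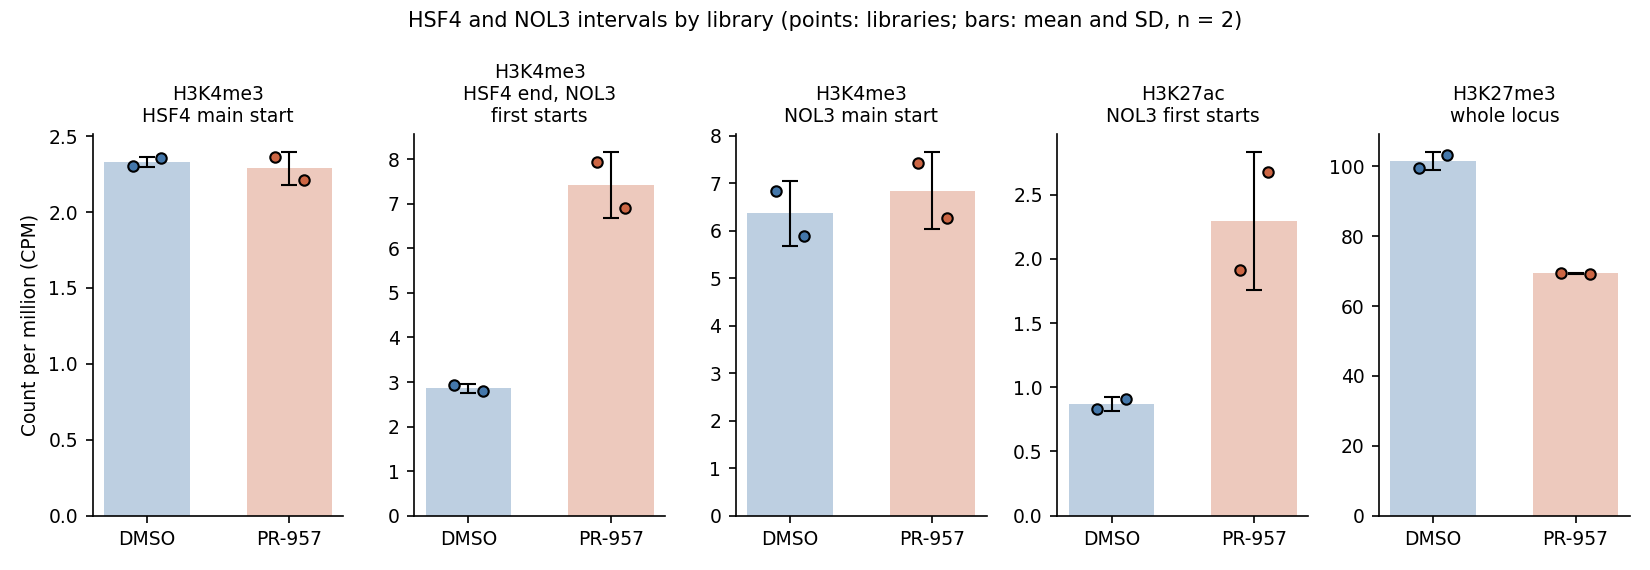
CPM (y axis, separate scale per panel, from 0) of 5 intervals at HSF4 and NOL3 in every library, with points for libraries and bars for the mean and SD of the 2 libraries per treatment. The H3K4me3 interval between the genes separated the treatments (2.93 and 2.79 against 7.94 and 6.90 CPM), as did H3K27me3. H3K4me3 overlapped in the widest interval at the main HSF4 start and in the interval at the main NOL3 start.

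Among 965 genes measured in all 4 marks, those with log2 fold changes nearest to HSF4 (Euclidean distance over the 4 marks) were GADD45G at 1.07, SP9 at 1.21 and ZBP1 at 1.22. GADD45G, a stress-inducible gene, had log2 fold changes of 0.59 in H3K4me3, -0.57 in H3K27me3, 0.71 in H3K27ac and -0.24 in H3K4me1. None of the 3 had a log2 fold change in H3K4me3 as large as HSF4, the values for SP9 and ZBP1 being 0.27 and 0.48. In H3K27me3 SP9 and ZBP1 had -0.51 and -0.11. The distances include the H3K27ac value of HSF4, 1.41 with a standard error of 0.61, which rests on few counts. How they compare with the distances of the remaining genes was not determined.

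The HSP70 class is represented by HSPA8, the constitutive HSP70 of the cytosol, and by HSPH1, a nucleotide exchange factor of HSP70. The H3K4me3 interval of HSPA8, chr11:123056227-123065126, covered the gene and had 51.6 and 53.8 CPM with DMSO and 46.2 and 45.3 CPM with PR-957. Both PR-957 libraries were lower, by a log2 fold change of -0.20 with a standard error of 0.07, and the adjusted p was 0.315. H3K27ac at HSPA8 was 71.1 and 68.6 CPM with DMSO and 64.7 and 65.0 CPM with PR-957, again lower in both libraries (log2 fold change -0.11, adjusted p 0.777). H3K4me1 at HSPA8 overlapped between the groups.

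HSPH1 had the highest H3K4me3 level per kb among the representing intervals of the members, at 10.5 CPM and the 97.7th percentile of genes in DMSO. An interval at the upstream start of HSP90AA1, chr14:102138622-102141455, which WDR20 shares, had 13.4 CPM per kb but did not represent that gene. H3K4me3 of HSPH1 was 50.7 and 51.2 CPM with DMSO and 46.7 and 49.6 CPM with PR-957, a log2 fold change of -0.08 with a standard error of 0.07. Its H3K27ac overlapped, with 25.7 and 21.0 CPM with DMSO and 22.5 and 24.1 CPM with PR-957. HSPA1A and HSPA1B, the stress-inducible HSP70 genes, are not analysed here, since no interval of any mark lay within 2 kb of their starts in the lists used, the nearest being 836 kb away. The same holds for HSF1, whose nearest interval was 21.8 kb away in H3K27ac. Nothing follows from this on the marks at these 3 genes.

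DNAJB1, a J-domain partner of HSP70, had H3K27ac of 33.5 and 29.8 CPM with DMSO and 36.9 and 36.2 CPM with PR-957. It was higher in both PR-957 libraries, with a log2 fold change of 0.20, a standard error of 0.11 and an adjusted p of 0.641. Its H3K4me3 and H3K4me1 overlapped between the groups, with log2 fold changes of 0.02 in each. The windows of DNAJB1 also hold starts of TECR, an enzyme of fatty acid elongation, so that both genes share these intervals.

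HSP90AA1, the stress-inducible cytosolic HSP90, had H3K27ac of 50.8 and 56.1 CPM with DMSO and 45.2 and 46.7 CPM with PR-957 over chr14:102083026-102089220. Both PR-957 libraries were lower, with a log2 fold change of -0.21, a standard error of 0.09 and an adjusted p of 0.440. The element run printed above lies in this interval. At the upstream start of HSP90AA1 the H3K27ac interval chr14:102138480-102140935 had 10.6 and 9.98 CPM with DMSO and 11.9 and 10.8 CPM with PR-957, with the opposite sign at 0.13. H3K4me1 on the flank of the main promoter, chr14:102087064-102090424, was 3.69 and 3.85 CPM with DMSO and 2.70 and 2.13 CPM with PR-957. Its log2 fold change of -0.66 had a standard error of 0.26 and an adjusted p of 0.161. H3K4me3 of HSP90AA1 overlapped between the groups, with a log2 fold change of -0.12.

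HSPB1, the small heat shock protein also called HSP27, had H3K27ac of 14.5 and 13.0 CPM with DMSO and 11.5 and 8.87 CPM with PR-957 over chr7:76301297-76305106. The PR-957 libraries lay below the DMSO libraries, with a log2 fold change of -0.45, a standard error of 0.18 and an adjusted p of 0.427. All 4 overlapping H3K27ac intervals of the gene had the same sign, between -0.56 and -0.45, and the lowest adjusted p among them was 0.279. H3K4me3 at the same promoter was 22.8 and 21.6 CPM with DMSO and 21.2 and 20.4 CPM with PR-957, with a log2 fold change of -0.10.

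BAG3, a co-chaperone that couples HSP70 to autophagy, had a pattern of the opposite sign in H3K4me1. The interval chr10:119656846-119659618, which lies near the second annotated start of the gene and not at the promoter, had 5.86 and 5.31 CPM with DMSO and 6.61 and 8.78 CPM with PR-957. Each PR-957 library exceeded both DMSO libraries, with a log2 fold change of 0.48, a standard error of 0.17 and an adjusted p of 0.114, the lowest among the members in H3K4me1. At the BAG3 promoter, H3K27ac was 12.8 and 13.0 CPM with DMSO and 12.1 and 17.3 CPM with PR-957, and H3K4me3 was 22.8 and 19.6 CPM with DMSO and 20.2 and 20.1 CPM with PR-957. The groups overlapped in both.

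**Figure D4:**
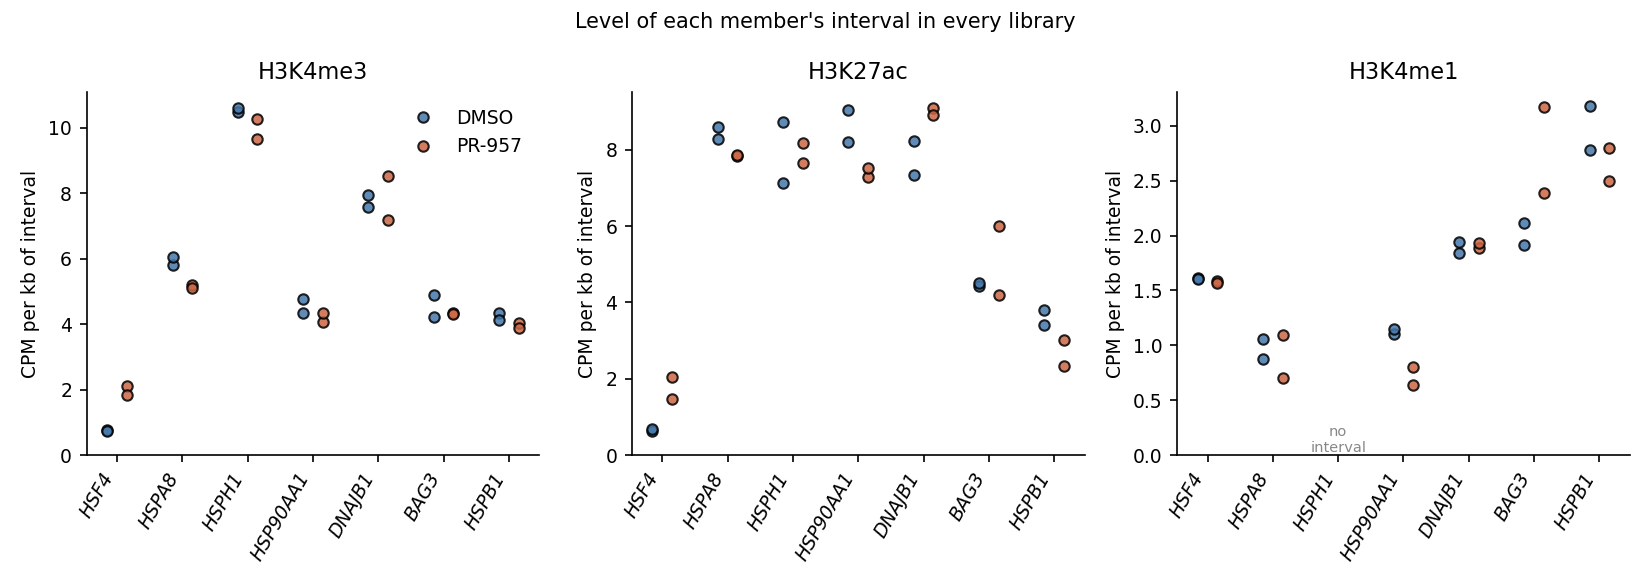
Level of the representing interval (y axis, CPM per kb of interval) of the 7 members with an interval in each of the 4 libraries of H3K4me3, H3K27ac and H3K4me1, with blue points for DMSO and orange points for PR-957. HSF4 was lowest in H3K4me3 and H3K27ac, with 0.758 and 0.662 CPM per kb in the mean of the DMSO libraries, and HSPH1 was highest in H3K4me3 with 10.5.

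Levels per kb of the representing intervals differed more between members than between treatments. They depend on the width of the interval and on which one represents a gene. In DMSO, H3K4me3 per kb of interval ran from 0.758 CPM at HSF4 over 4.23 at HSPB1, 4.55 at both HSP90AA1 and BAG3, 5.92 at HSPA8 and 7.76 at DNAJB1 to 10.5 at HSPH1. HSPB1, HSP90AA1 and BAG3 are neighbours in this order whose libraries overlapped. H3K27ac per kb ran from 0.662 CPM at HSF4 over 3.61 at HSPB1 and 4.47 at BAG3 to between 7.79 and 8.63 at DNAJB1, HSPH1, HSPA8 and HSP90AA1, each of which overlapped with its neighbour in this order.

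Groups that do not overlap are frequent with 2 libraries on each side and were read against all genes. In H3K27ac 5 of 7 members did not overlap, against 38.4% of genes. In H3K4me3 it was 4 of 7, against 37.8%. In H3K4me1 it was 3 of 6, against 47.8%, and in H3K27me3 1 of 1, against 49%. The median log2 fold change of the members was -0.01 in H3K27ac, -0.08 in H3K4me3 and -0.05 in H3K4me1, beside 0.00055, -0.01 and -0.08 over all protein-coding genes. Over every interval within 2 kb of a member's start, 0 of 41 passed the test in H3K27ac, 0 of 42 in H3K4me1, 4 of 41 in H3K4me3 and 4 of 4 in H3K27me3. In each mark those that passed were overlapping intervals at HSF4 that NOL3 shares, so they are not separate sites. Across all intervals of the lists, 0.238% passed in H3K27ac and 1.94% in H3K4me1.

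A wider list of 59 other chaperone genes, from the HSP70, HSP90, J-domain, BAG, small heat shock and chaperonin families with their co-factors and HSF2, was read the same way, and 51 of them had an interval. 0 of 49 passed the test in H3K27ac, 0 of 7 in H3K27me3, 1 of 29 in H3K4me1 and 0 of 50 in H3K4me3. The same test called 0.48%, 11.8%, 2.15% and 0.219% of the representing intervals of all protein-coding genes in these marks, in that order. At an unadjusted p below 0.05 there were 6, 1, 6 and 6 genes of the list, for which no share of all genes was determined. The gene that passed was CDC37, the co-chaperone that brings kinases to HSP90. CDC37 was represented in H3K4me1 by chr19:10399135-10413960, which does not overlap its H3K4me3 interval, chr19:10414646-10426206. Its H3K4me1 was 56.5 and 51.4 CPM with DMSO and 38.3 and 43.8 CPM with PR-957, lower in both libraries by a log2 fold change of -0.39 with a standard error of 0.12 and an edgeR adjusted p of 0.0447, but it was not called without DMSO library 1 or without either PR-957 library, nor by DESeq2, nor with a replicate block. At a mean count of at least 50 it was not called either, and DNAJB2 passed in its place with the opposite sign. DNAJB2, a J-domain protein, missed the threshold with an edgeR adjusted p of 0.0519 in H3K4me1. DNAJB2 was represented there by chr2:219284906-219288883, which does not overlap its H3K4me3 interval, chr2:219277318-219281740. Its H3K4me1 level was 3.59 and 4.68 CPM with DMSO and 6.67 and 6.18 CPM with PR-957. This was higher in both libraries by a log2 fold change of 0.64 with a standard error of 0.20. H3K27me3 at HSPB7, a small heat shock gene of heart muscle, was also near the threshold, with 17.8 and 19.3 CPM with DMSO and 25.4 and 23.7 CPM with PR-957, a log2 fold change of 0.40 and an adjusted p of 0.0580. STUB1, a ubiquitin ligase that works with HSP70, followed at 0.61 with an adjusted p of 0.397.

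In H3K27ac the lowest p values of the list were those of HSP90AB1, the constitutive HSP90, and BAG4, with log2 fold changes of -0.15 and -0.18 and adjusted p of 0.417 and 0.481. In H3K4me3 they were those of BAG1 and DNAJA1, with -0.18 and -0.17 and adjusted p of 0.523 and 0.576. In H3K4me3 the log2 fold change was below 0 at 38 of the 50 genes tested and above 0 at 12, while 46.4% of all protein-coding genes were above 0. This split was not tested. HSPD1 and HSPE1 are represented by the same interval, and several genes share theirs with neighbours outside the list, so the genes are not all separate sites. HSF2, the remaining heat shock factor of the list, had H3K4me3 of 15.5 and 17.1 CPM with DMSO and 18.8 and 18.5 CPM with PR-957, a log2 fold change of 0.20 with an adjusted p of 0.599. The medians of the list were -0.04 in H3K27ac, 0.01 in H3K4me1, -0.05 in H3K4me3 and 0.25 in H3K27me3, the last over 7 genes and beside -0.02 over all protein-coding genes.

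**Figure D5:**
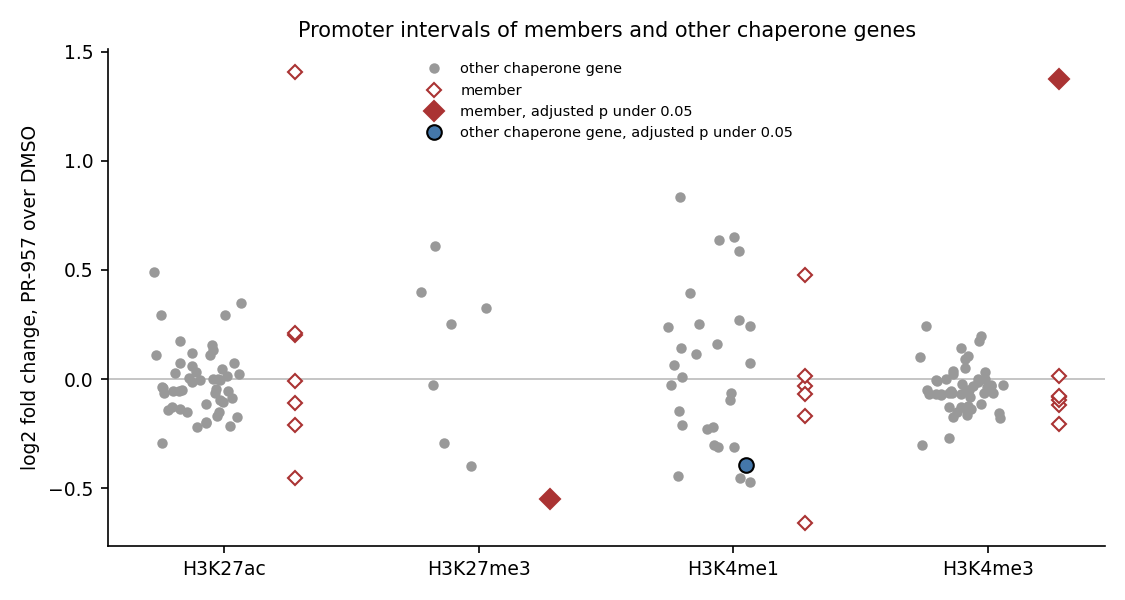
Log2 fold change of PR-957 over DMSO (y axis) for the representing intervals of other chaperone genes (circles) and of the members (diamonds) in the 4 marks (x axis), with filled diamonds and the blue circle for an adjusted p below 0.05. HSF4 lies above every other chaperone gene in H3K4me3 at 1.38, and CDC37 is the blue circle in H3K4me1 at -0.39.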

How the data were processed

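Cut&Tag libraries of 4 marks (16 libraries) were used, and the 2 IgG samples were not analysed here. The counts are whole numbers that the authors deposited per interval without normalization. The submitters' processing notes name hg38, Trimmomatic 0.39, Bowtie2 2.2.5, Picard 2.27.1, SAMtools 1.7, SEACR 1.3 and deepTools 3.5.1, and the study's methods name Bowtie2 for alignment. The counter and the handling of duplicates are not given in the sources used here. Coordinates of intervals follow the deposited files.

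Intervals were assigned to genes within 2 kb of a GENCODE 44 start. Per mark, all intervals that passed filterByExpr (minimum count 10) were TMM-normalized and tested with edgeR 4.0.16 (R 4.3.3; quasi-likelihood fit) without a replicate block, with Benjamini-Hochberg adjustment over the mark and a threshold of 0.05. CPM values are TMM-scaled, and confidence intervals are at 95%. 1 further marker gene is not reported here. Replicate counts differed by more than sampling noise (chi-square per degree of freedom 2.06 to 2.90). The members and the list of other chaperone genes were chosen with earlier results of these data known. Named from that list were genes that passed, or the 2 lowest p where none did, with HSF2 and DNAJB2 added after their values were seen.

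Reads are PCR-amplified and carry no molecular identifiers that the files show, so confidence intervals cover counting error and the spread of 2 libraries. Alternatives were other scaling (DESeq2 1.42.0 included), filters, windows, the choice of interval, a replicate block and leaving out each library.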

Additional observations from a re-analysis of the deposited data

How the results depend on the processing

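HSF4, by intervals that NOL3 shares, kept its calls in H3K4me3 (log2 fold change 1.27 to 1.47 over 13 of 14 alternatives) and H3K27me3 (-0.59 to -0.39 over 14). The exception was a window of 5 kb, which replaced its H3K4me3 interval by one at TRADD and FBXL8, 2865 bases from the nearest HSF4 start. The value was then -0.21 and the count of members called 0 in place of 1. The replicate numbers do not establish pairs (correlation of same-numbered deviations -0.01, -0.01, 0.01 and 0.17 over the marks), and a replicate block left the members' counts at 0, 1, 0 and 1 for H3K27ac, H3K27me3, H3K4me1 and H3K4me3, with HSF4 at 1.37 in H3K4me3 and -0.55 in H3K27me3.

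Other chaperone genes called in H3K4me1 were 2 with library size alone (CDC37 and DNAJB2), 0 with DESeq2, 0 with the replicate block, 1 at a mean count of at least 50 (DNAJB2 in place of CDC37) and 0 to 1 when a library was left out. In H3K27me3, HSPB7 was called with library size alone, with cyclic loess and at a mean count of at least 50, making the count 1 in each. Library size alone moved the median log2 fold change of all H3K27me3 intervals from 0.02 to 0.18.

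Small values turned sign without passing the test. HSPH1 in H3K27ac was 0.0026 with library size alone, 0.010 at a mean count of at least 50, 0.0020 with the replicate block and 0.013 with the interval of highest count per kb, which also gave -0.17 for DNAJB1 in H3K4me1 and 0.036 for HSP90AA1 in H3K4me3. HSF4 in H3K4me1 was 0.019 with library size alone, and its intervals there were 0.0028 (library size, 67169201 to 67175555) and -0.031 (cyclic loess, 67164595 to 67166466). With 1 library left out, the ranges that spanned 0 were -0.094 to 0.43 for BAG3 in H3K27ac, -0.18 to 0.039 for BAG3 in H3K4me3, -0.020 to 0.051 and -0.11 to 0.13 for DNAJB1 in H3K4me1 and H3K4me3, -0.45 to 0.19 for HSPA8 in H3K4me1 and -0.14 to 0.16 for HSPH1 in H3K27ac. For HSF4 intervals in H3K4me1 they were -0.39 to 0.019, -0.40 to 0.064, -0.27 to 0.30, -0.24 to 0.37 and -0.37 to 0.27, and for the H3K4me3 interval at its main start -0.074 to 0.020. The causes were not tested.

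Calls over all intervals fell with DESeq2 from 177 to 85 in H3K27ac, 1882 to 1278 in H3K27me3, 2099 to 26 in H3K4me1 and 134 to 34 in H3K4me3. Without 1 library they ranged from 20 to 89, 1168 to 1517, 322 to 1756 and 28 to 170. At HSF4, H3K27ac held 9 to 38 counts per library, which limits the precision of its fold change. At the 6 chaperone genes among the members, changes with an unadjusted p below 0.05 did not pass the adjustment over all intervals of the mark.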
